A study of Mus musculus with 6 samples.

Results

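Transcripts of the BCL2 family were compared between mouse AML1-ETO9a leukaemia cells with wildtype and with knocked-out AES, a co-repressor related to Groucho/TLE proteins. The 10 genes described were taken by symbol from a list of survival and death genes: Bcl2, Bcl2l1 and Mcl1 (survival), Bak1 and Bok (effectors), and Bcl2l11, Bad, Bid, Bik and Bmf (BH3-only). Each had 1 row of its own on the array, and they are 10 of the 19938 genes measured under 1 symbol.

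BCL2 proteins control whether the outer membrane of mitochondria is opened during programmed cell death. Survival members hold the effectors in check, and BH3-only proteins, which share a single short region of similarity with the others, bind the survival members or act on the effectors directly. Once the effectors open the membrane, cytochrome c is released and caspases are activated. Blood cells and leukaemias are known to depend on particular survival members, with BCL2 and MCL1 the ones most often targeted by drugs in acute myeloid leukaemia.

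Fetal liver cells of stage E14.5, with AES alleles that were wildtype or floxed, had been transduced with AML1-ETO9a, a shortened fusion of AML1 and ETO found in human leukaemia, and transplanted into recipient mice. The recipients received tamoxifen 4 weeks later, and GFP-positive spleen cells, the cells expressing AML1-ETO9a, were sorted from them. The strain is given as C57BL/6, and the 3 AES wildtype and 3 AES knockout samples thus share the fusion protein, the transplantation and the sorting gate. The labels do not name the Cre driver, and whether each replicate is its own mouse is not stated. The p-values therefore reflect spread that may be technical. The wildtype mice had died of leukaemia when cells were taken, whereas the knockout samples date from the experiment's end, so genotype and time of collection cannot be told apart.

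On the log2 scale of the deposited values, Aes (listed as Tle5) averaged 11.11 ± 0.014 in the wildtype and 8.99 ± 0.29 in the knockout group (SD, n = 3 each). The array medians lay between 6.47 and 6.65, and values near them may be background because there are no detection calls. Aes stayed above the median on every knockout array (8.80, 9.33 and 8.86), so part of its signal remained. The knockout arrays are not uniform. The 3 measured Y-linked genes lay between 4.09 and 5.45 on knockout replicates 1 and 3 and between 8.99 and 9.80 on the other 4 arrays. The summed linear level of 12 neutrophil granule markers ran from 714 to 9825 in wildtype and from 644 to 12652 in knockout cells. Of 7 blast and progenitor markers, Kit and Myb were above 10.60 on every array, whereas Flt3, Hoxa9 and Meis1 were below the median of every array. Cd34 was above the array median on 3 arrays only, and the pan-leukocyte gene Ptprc ran from 5.76 on knockout replicate 1 to 9.78 on wildtype replicate 1.

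Promoters of Bcl2 and Bcl2l11 are shown because these 2 members had the largest differences between the groups and were both highest on the same array. The sequences run from 250 bases before to 50 after the gene start and come from RefSeq (GRCm38.p6), which held 15 promoters for 9 of the members. Capitals mark matches to the RUNX core, the DNA word recognised by the AML1 part of the fusion protein (TGTGGT or TGCGGT, either strand), or to the FOXO word GTAAACA (either strand). Bcl2 has 1 promoter, chr1:106714241-106714540, minus strand, and Bcl2l11 has 2, chr2:128125788-128126087 and chr2:128127325-128127624, plus strand.
Bcl2: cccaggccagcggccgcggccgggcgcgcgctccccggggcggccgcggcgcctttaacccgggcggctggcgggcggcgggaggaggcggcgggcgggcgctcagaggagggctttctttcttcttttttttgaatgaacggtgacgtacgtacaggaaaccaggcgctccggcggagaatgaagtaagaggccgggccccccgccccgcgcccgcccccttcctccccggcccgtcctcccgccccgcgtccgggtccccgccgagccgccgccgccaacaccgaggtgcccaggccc
Bcl2l11 first promoter: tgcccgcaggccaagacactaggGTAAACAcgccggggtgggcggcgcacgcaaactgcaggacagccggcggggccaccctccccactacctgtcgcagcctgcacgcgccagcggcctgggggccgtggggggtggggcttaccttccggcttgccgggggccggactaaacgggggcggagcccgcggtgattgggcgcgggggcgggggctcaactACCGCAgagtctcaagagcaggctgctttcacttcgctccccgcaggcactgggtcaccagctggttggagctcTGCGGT
Bcl2l11 second promoter: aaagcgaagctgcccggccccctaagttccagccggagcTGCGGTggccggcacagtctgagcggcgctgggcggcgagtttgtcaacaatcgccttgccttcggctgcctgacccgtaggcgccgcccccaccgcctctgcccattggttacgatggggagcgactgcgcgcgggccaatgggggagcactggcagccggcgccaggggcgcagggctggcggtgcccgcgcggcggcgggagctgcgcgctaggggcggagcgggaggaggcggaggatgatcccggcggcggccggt

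The first Bcl2l11 promoter holds 2 RUNX words and 1 FOXO word, the second holds 1 RUNX word, and the Bcl2 promoter holds neither. The RUNX word was present in 22.4% and the FOXO word in 3.65% of all 32851 promoters of this length. Among the 15 promoters of the family, 4 held the RUNX word (in Bcl2l11, Bmf and Bak1) and 1 the FOXO word. The TCF/LEF word (CTTTGAA or CTTTGAT, either strand) was in 0 of the 15 and in 8.65% of all promoters. These matches describe the letters only and were not tested against binding.

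None of the 10 genes passed the comparison of AES knockout with wildtype. With limma and Benjamini-Hochberg adjustment over all 19938 genes, 0 of 10 were called at an adjusted p of 0.05, against a background of 0% of all genes. At an unadjusted p under 0.05 the count was also 0 of 10, against 2.53% of all genes (505). Means were higher in knockout cells for 7 members and lower for 3, with a median difference of 0.05 on the log2 scale. Over all genes, 50.9% had higher means and the median difference was 0.003. Each member's adjusted p was 1.00 with limma, and no exact permutation test gave a p below 0.1, the smallest that 3 against 3 allows.

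**Figure D1:**
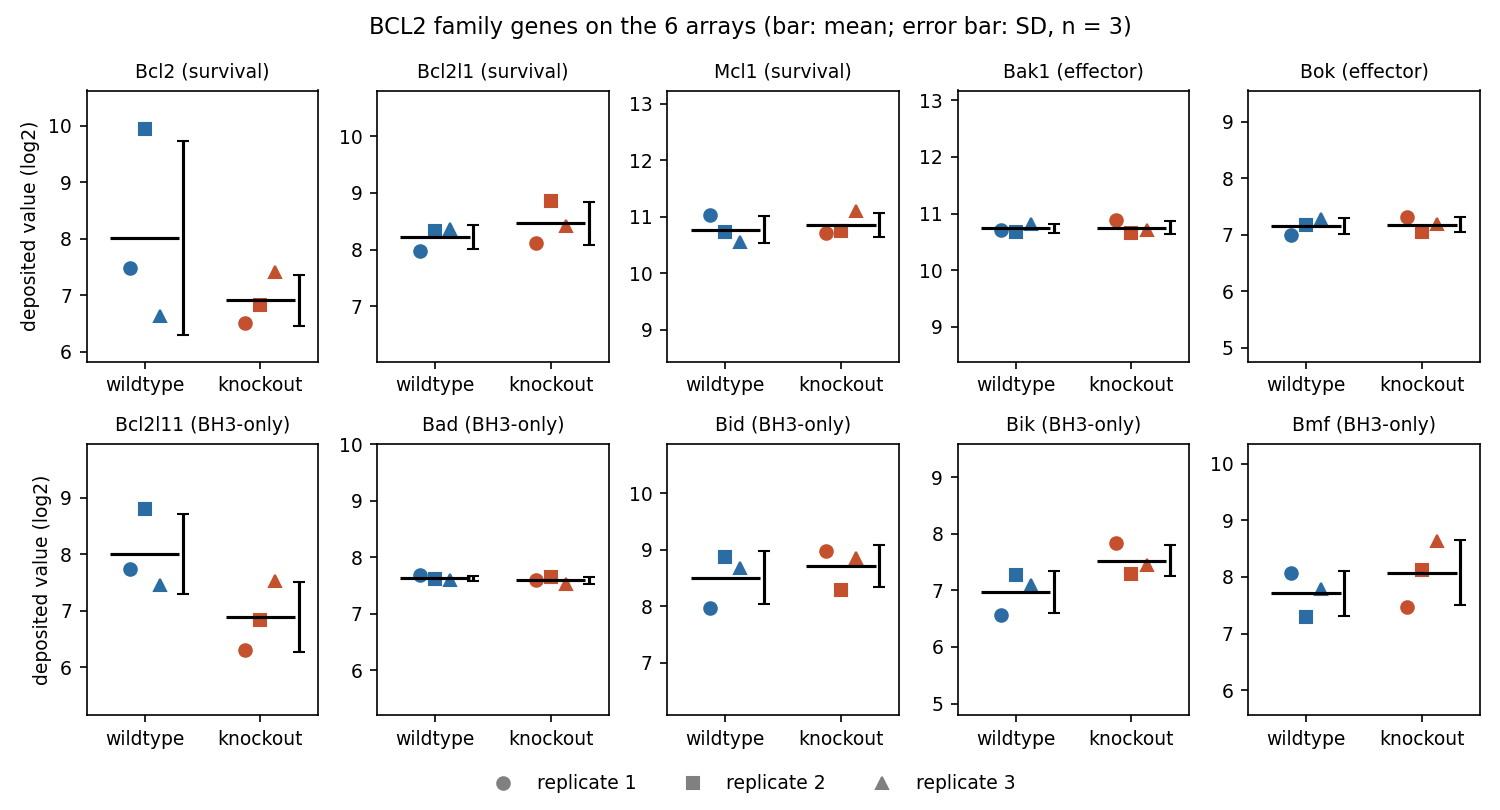
Deposited log2 values of the 10 genes on each array, with wildtype in blue and knockout in red, bars at the group means and error bars of 1 SD (n = 3). Every panel spans the same number of log2 units, so the tall spread of Bcl2 and Bcl2l11 can be set against the near-identical points of Bad and Bak1.

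Among the survival genes, Bcl2 is the founding member, which guards mitochondria by binding BH3-only proteins. It had values of 7.48, 9.94 and 6.63 on wildtype arrays 1 to 3 and of 6.51, 6.83 and 7.40 on knockout arrays 1 to 3 (probe set 10357043). Wildtype replicate 2 stood far above the other 5 arrays, and the groups overlapped, since wildtype replicate 3 lay below 2 of the knockout arrays. The means were 8.02 ± 1.72 and 6.91 ± 0.45 (SD, n = 3 each), a 2.15-fold lower level in knockout cells. The values on wildtype replicate 3 and knockout replicate 1 lay just above the medians of those arrays (6.56 and 6.47). The fold therefore depends on the background. The log2 difference was -1.10 with a 95% interval from -3.21 to 1.00 (limma, unadjusted p = 0.246). Without wildtype replicate 2 the difference was -0.14.

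Bcl2l1, which encodes BCL-XL, a survival protein of erythroid cells and platelets, had wildtype values of 7.97, 8.33 and 8.36 and knockout values of 8.11, 8.85 and 8.42 (probe set 10488655). Knockout replicate 2 was the highest array and wildtype replicate 1 the lowest, and the groups overlapped. The difference was 0.24 (95% interval -0.30 to 0.78), and without knockout replicate 2 it was 0.04. The summed level of 3 measured erythroid markers, of 7 listed, was also highest on that array, 5699 against 1584 to 3735 on the other 5. Those 5 arrays did not keep this order. Knockout replicate 3 had the next highest Bcl2l1 value but the lowest sum (1584). Wildtype replicate 1 and knockout replicate 1 had the lowest Bcl2l1 values, with sums of 3646 and 3735. The part of these markers in the result was not tested.

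Mcl1, a short-lived survival protein needed by haematopoietic stem cells and granulocytes, had wildtype values of 11.03, 10.73 and 10.56 and knockout values of 10.72, 10.74 and 11.10 (probe set 10494306). Wildtype replicate 1 and knockout replicate 3 were the 2 highest arrays, and the groups overlapped almost fully. The difference was 0.08 (95% interval -0.33 to 0.49). The sign turned without wildtype replicate 3 (-0.024) or knockout replicate 3 (-0.043). The neutrophil granule sums of 9825 and 12652 on those 2 arrays were the highest of the 6. Knockout replicate 2 had a sum of 8238 but an Mcl1 value of only 10.74. That value was near those of wildtype replicate 2 (10.73, sum 2596) and knockout replicate 1 (10.72, sum 644). The part of these markers was not tested.

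The effectors varied little between arrays. Bak1, which forms pores in the outer mitochondrial membrane, had wildtype values of 10.71, 10.68 and 10.82 and knockout values of 10.89, 10.66 and 10.71 (probe set 10449303). The arrays lay within 0.22 of each other, and the difference was 0.02 (95% interval -0.21 to 0.25). Its sign turned under quantile normalization (-0.023). Bok, an effector relative, had wildtype values of 6.99, 7.18 and 7.28 and knockout values of 7.31, 7.04 and 7.18 (probe set 10348858). Its difference was 0.03 (95% interval -0.25 to 0.31). Bax, the other main effector, was not analysed here.

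Among the BH3-only genes, Bcl2l11, which encodes BIM, a protein that binds every survival member and ends the life of blood cells deprived of growth factors, had the smallest p of the family. Wildtype values were 7.75, 8.81 and 7.46, and knockout values were 6.30, 6.84 and 7.52 (probe set 10475866). Wildtype replicate 2 was again the highest array, and knockout replicate 3 lay just above wildtype replicate 3, so the groups overlapped by that 1 pair. The means were 8.004 ± 0.71 and 6.89 ± 0.61 (SD, n = 3 each), 2.17-fold lower in knockout cells. The difference was -1.12 with a 95% interval from -2.23 to 0.004 (limma, unadjusted p = 0.0506, adjusted p = 1.00).

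The lower mean of Bcl2l11 was kept with each array left out, from -1.43 without knockout replicate 3 to -0.71 without wildtype replicate 2, with no adjusted p under 0.972. Its value of 6.30 on knockout replicate 1 lay below that array's median of 6.47, so the fold depends on the background. Bcl2 and Bcl2l11 were the 2 of 10 members whose means differed by over 1 on the log2 scale, as 1.47% of all genes (293) did. In these bulk RNA samples, fewer cells of a type and less RNA per cell cannot be told apart.

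Bik, a BH3-only protein of the endoplasmic reticulum, was the 1 member whose groups did not overlap, as was the case for 7.15% of all genes. Its wildtype values were 6.56, 7.27 and 7.10 and its knockout values 7.83, 7.30 and 7.46 (probe set 10425801). Every knockout array was above every wildtype array, but knockout replicate 2 exceeded wildtype replicate 2 by under 0.03. Knockout replicates 1 and 3, the 2 highest arrays, are also those on which the Y-linked genes were low. The part of what sets these arrays apart was not tested. Knockout cells had a 1.46-fold higher level, with means of 6.98 ± 0.37 in wildtype and 7.53 ± 0.27 in knockout (SD, n = 3 each). The difference was 0.55 (95% interval -0.02 to 1.12, limma unadjusted p = 0.0564), and the exact permutation p was 0.1. The value on wildtype replicate 1 lay just below that array's median of 6.62.

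Bmf, which is held on the actin and myosin skeleton until released, had wildtype values of 8.07, 7.28 and 7.78 and knockout values of 7.47, 8.13 and 8.63 (probe set 10486112). The difference was 0.37 (95% interval -0.48 to 1.21), and it was 0.09 without knockout replicate 3, the highest array. The 3 arrays highest for Bmf were wildtype replicate 1 and knockout replicates 2 and 3. They also had the highest neutrophil granule sums (9825, 8238 and 12652, against 644 to 2596 on the others). Their mast cell and basophil sums were the highest as well (25978, 16732 and 15293, against 3250 to 10651). Among the other arrays, wildtype replicate 2 had the highest neutrophil granule sum (2596) but the lowest Bmf value. The part of these markers was not tested. Bid, which is cut by caspase-8 and carries the death receptor signal to mitochondria, had wildtype values of 7.98, 8.87 and 8.68 and knockout values of 8.98, 8.28 and 8.86 (probe set 10547531). Wildtype replicate 1 and knockout replicate 2 were low and the other 4 arrays close together. The difference was 0.20 (95% interval -0.53 to 0.92), and it was -0.07 without wildtype replicate 1. Bad, which growth factor signalling silences by phosphorylation, had values of 7.68, 7.62 and 7.59 in wildtype and 7.59, 7.65 and 7.53 in knockout cells (probe set 10461017). Its difference was -0.04 (95% interval -0.22 to 0.14), the narrowest interval of the family.

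**Figure D2:**
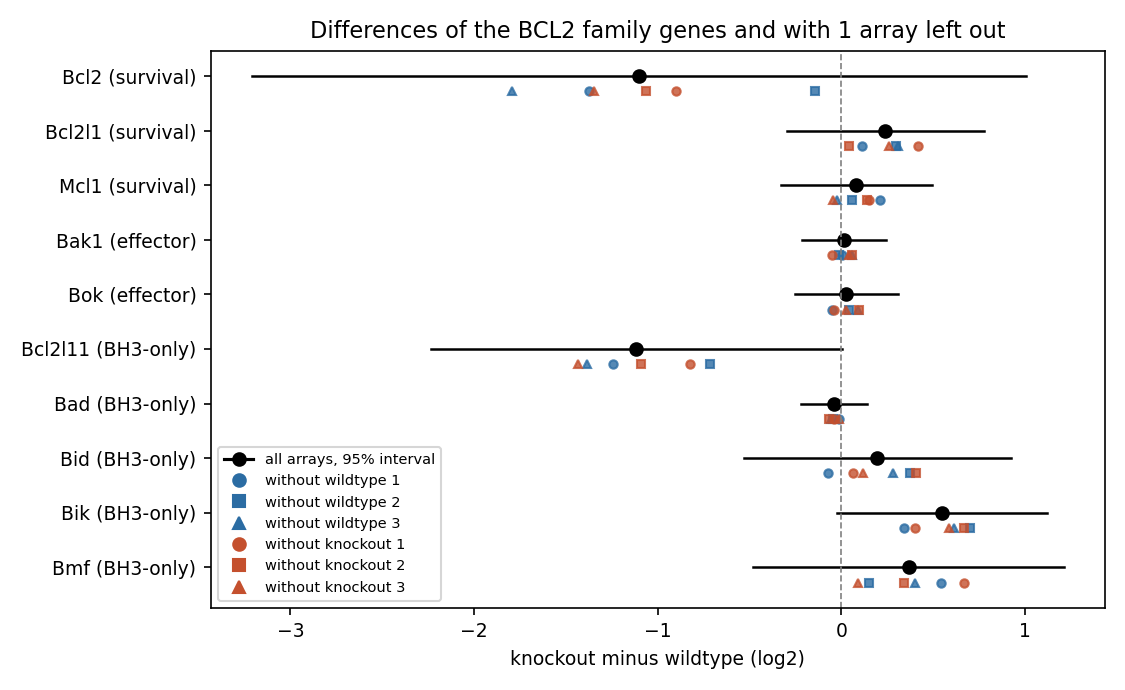
Difference of knockout from wildtype for each gene on the log2 scale. Black points and lines give the estimate with all 6 arrays and its 95% interval, and the small symbols give the estimate with 1 array left out (blue, wildtype; red, knockout). Every interval includes 0, and the blue square of Bcl2, without wildtype replicate 2, sits at -0.14.

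The members differed widely in how much they varied over the 6 arrays, a spread that includes any difference between the groups. The SD over the 6 arrays was 1.28 for Bcl2 and 0.85 for Bcl2l11, larger than for 98.2% and 95.6% of all genes. It was 0.05 for Bad and 0.09 for Bak1, larger than for only 2.62% and 17.9%. The median SD was 0.35 over the members and 0.15 over all genes, and 7 of the 10 lay above the latter.

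Bcl2 and Bcl2l11 followed a like order across the arrays, highest on wildtype replicate 2 and lowest on knockout replicate 1. Over the 6 arrays of both groups, Pearson's r was 0.89 (exact permutation p = 0.0111) and Spearman's rho 0.94 (exact permutation p = 0.0167). Adjusted over the 45 pairs of members these became 0.458 and 0.743, and 0 pairs passed. Without wildtype replicate 2 and knockout replicate 1, r was 0.60 over the 4 arrays left, so the relation rests in part on those arrays. The other pairs with an unadjusted exact p under 0.05 were Bok with Bid (r = 0.88), Bid with Bik (r = 0.82) and Bad with Bid (r = -0.82). For Bok with Bid, r was -0.0003 without wildtype replicate 1 and knockout replicate 2.

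**Figure D3:**
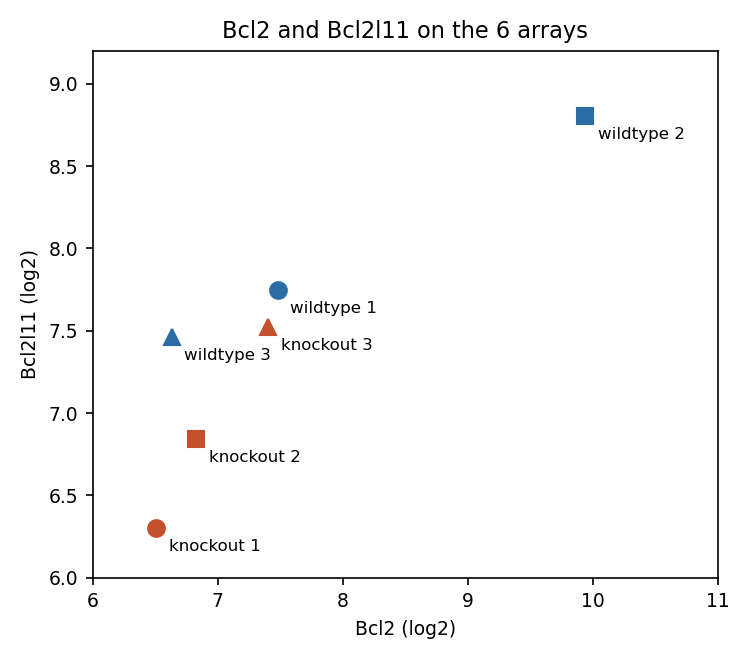
Bcl2 (x axis) against Bcl2l11 (y axis) on each array, both as deposited log2 values. Wildtype replicate 2 stands alone at 9.94 and 8.81, and the other 5 arrays lie between 6.51 and 7.48 on the x axis.

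Markers of other cells were read beside these 2 genes, since lymphocytes also express Bcl2. The summed level of 6 measured B cell markers was 1681 on wildtype replicate 2, the highest of the 6 arrays, against 754 to 1331 on the other wildtype arrays and 412 to 1584 on the knockout arrays. That sum is mostly Ighm, at 10.11 on this array, followed by Cd79b at 8.17, while the other 4 genes (Cd79a, Ms4a1, Blk and Pax5) were at 6.09 to 6.29, below the array median of 6.55. The 8 T and NK cell markers summed to 403 to 584 in wildtype and 383 to 425 in knockout cells, highest on wildtype replicate 1. The 7 macrophage markers summed to 1848 on wildtype replicate 2 and were lowest on knockout replicate 1 (507), but were highest on knockout replicate 3 (3047). The 6 mast cell and basophil markers summed to 4110 on wildtype replicate 2 and 3250 on knockout replicate 1, against 10651 to 25978 on the other 4 arrays. The part of these cells in the Bcl2 and Bcl2l11 values was not tested.

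The genes whose pattern over the 6 arrays was most like that of 3 members are given as a description, out of 9614 genes searched. For Bcl2 they were Lgals1 (r = 0.98), which encodes galectin-1, Rnf187 (r = 0.98) and the small nucleolar RNA Snora20 (r = 0.97). For Bcl2l11 they were the chemokine gene Ccl5 (r = 0.99), the actin regulator Cyfip2 (r = 0.97) and the splicing kinase Clk4 (r = 0.97). For Mcl1 they were the ferritin light chain gene Ftl1 (r = 0.99), the catenin Ctnna1 (r = 0.98) and the lysosomal transporter Atp13a2 (r = 0.97). With 6 arrays such values are easily reached: 32, 25 and 50 genes had r over 0.9 with Bcl2, Bcl2l11 and Mcl1.

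The rest of the cell death pathway was read from 8 lists, of which 53 of 61 genes were measured under 1 symbol. With limma 0 of 53 were called higher and 0 lower, and 1 had an unadjusted p under 0.05, against 2.53% of all genes. Means were higher for 31 and lower for 22, with a median difference of 0.04. Groups did not overlap for 6 of the 53, against 7.15% of all genes.

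Of the classical relatives, the BH3-only gene Pmaip1 (NOXA, a partner of MCL1) had wildtype values of 8.31, 7.09 and 6.58 and knockout values of 6.49, 6.57 and 6.99. Wildtype replicate 1 stood apart and the groups overlapped, with a difference of -0.64 (95% interval -1.75 to 0.46). Pmaip1 lay just above the array median on wildtype replicate 3 (6.56) and knockout replicates 1 (6.47) and 2 (6.51). The p53 target Bbc3 (PUMA) had a difference of -0.13, Hrk of -0.14, the survival gene Bcl2l2 of 0.005 and its relative Bcl2l10, below the array median on every array, of 0.045. Bcl2a1c, whose row may share signal with its near-identical paralogs, had a difference of -0.44 and lay below the array median on every array. The other Bcl2a1 genes shared their rows and are not named singly.

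Bnip3, an atypical relative that marks mitochondria for removal, was the 1 gene of the lists with an unadjusted p under 0.05. Its wildtype values were 8.26, 8.89 and 8.14 and its knockout values 10.003, 8.99 and 9.90. Knockout replicates 1 and 3 were high and replicate 2 lay near wildtype replicate 2, though the groups did not overlap. Replicates 1 and 3 are also the arrays on which the Y-linked genes were low, and the part of what sets them apart was not tested. The difference was 1.21 (limma, unadjusted p = 0.0122, adjusted p = 1.00). Its close relative Bnip3l had a difference of 0.14.

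Downstream of the mitochondrion, caspase and apoptosome genes had higher means for 5 of 6 (median 0.10). Among them were Casp6, an executioner caspase, at 0.27 and Apaf1, the apoptosome scaffold, at 0.12. Outer membrane and released factors had a median of 0.02 over 8 genes, with Mtch2, a membrane receptor for BID, at 0.08 and Endog at -0.12. Of 5 inhibitors of apoptosis (median 0.05), Xiap, which blocks caspases, had 0.21 and Birc5, which is also a mitotic gene, -0.34. Death receptor genes had lower means for 6 of 8 (median -0.07), with Tnfrsf10b at -0.44 and Tradd at -0.19. Tnfrsf10b was at 6.89 on wildtype replicate 1. On all other arrays it was at 5.48 to 5.64, below the array median.

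Upstream regulators had higher means for 10 of 14 (median 0.09). Dynll2, the dynein light chain that binds BMF, had wildtype values of 9.75, 9.91 and 9.77 and knockout values of 9.66, 8.79 and 9.35, with groups that did not overlap. Its difference was -0.54 (limma, unadjusted p = 0.054, adjusted p = 1.00). Pim2, a kinase that phosphorylates BAD, had a difference of -0.25. None of these passed over all genes.

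**Figure D4:**
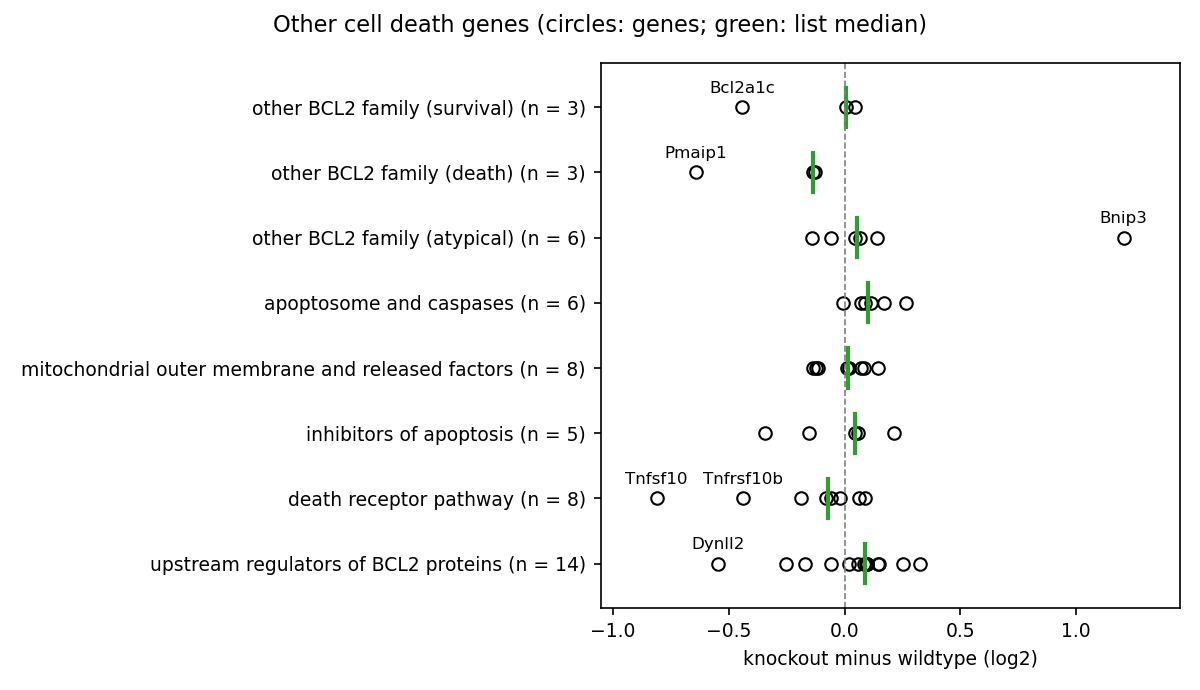
Difference of knockout from wildtype on the log2 scale for each of the 53 other cell death genes, by list, with the list medians in green. Most genes lie within 0.3 of 0, and Bnip3, at 1.21, is the farthest from it.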

How the data were processed

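RNA of 3 AES wildtype and 3 AES knockout samples was measured on 1 array each. The authors deposited processed values, used here as log2 values from their range of 2.67 to 14.4. No source used here gives their background correction, normalization or log base. Of 35512 rows, 35511 had values, and 21789 carried 1 symbol, 1621 several and 12101 none. For genes with several rows (999) the row with the highest mean was used, leaving 19938 genes. Dim genes were kept, which compresses differences near background.

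Groups were compared with limma 3.58.1 in R 4.3.3 (lmFit, eBayes, no block), two-sided, with Benjamini-Hochberg adjustment over all genes at 0.05. Single genes and pairs were also given exact permutation tests. In simulated data for this comparison with independent noise (19938 genes), 67% of 100 genes changed 2-fold and 93% of 100 changed 4-fold were recovered, with 5 false calls. The changed genes were drawn at random from all genes, and the members varied more (median SD 0.35 against 0.15 over all genes). The shares recovered therefore do not describe the members. In the real data Aes itself had an adjusted p of 0.234 (limma). Alternatives tried were median centring, quantile normalization, keeping only genes brighter than the array median on at least 3 arrays, trend and robust options, a replicate block, other uses of several rows, array weights, no moderation, an offset of 16 and leaving out each array.

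The members and lists were chosen with earlier results of these data known. Named were all members, Aes, the classical relatives and the 2 genes of smallest p per list. For Bcl2, Mcl1 and Bcl2l11, the 3 genes of highest r among those above the median gene mean were also named, leaving out predicted and clone names. The pairs of members were added after the data were seen. Figures used matplotlib 3.10.9 and Python 3.11.15.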

Additional observations from a re-analysis of the deposited data

How the results depend on the processing

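The count of members called stayed at 0 of 10 and that of other cell death genes at 0 under all 16 alternatives. Their adjusted p was at least 0.897 throughout. Of all genes, 3 were called without knockout replicate 2 and 0 in every other alternative, so these counts match the background. An unadjusted p under 0.05 was found for 376 to 968 of all 19938 genes by alternative. With dim genes left out it was 263 of 10716. At most 1 member had an unadjusted p under 0.05 in any alternative. For Bcl2l11 this was so under quantile normalization, median centring, trend and robust options and array weights, and without wildtype replicate 3 or knockout replicate 3. For Bik it was so without wildtype replicate 2. The sign held in every alternative for 6 members and turned for Mcl1, Bak1, Bok and Bid. Several alternatives leave a member's difference unchanged and could not turn its sign. These are the filter on dim genes, trend and robust options, the replicate block, other uses of several rows and no moderation. Quantile normalization gave -0.023 for Bak1. Array weights gave -0.018 for Bak1, -0.059 for Bok and -0.12 for Bid. With 1 array left out in turn, the difference ran from -0.043 to 0.21 for Mcl1, from -0.051 to 0.061 for Bak1, from -0.051 to 0.096 for Bok and from -0.070 to 0.41 for Bid. It ran from -1.80 to -0.14 for Bcl2, from -1.43 to -0.71 for Bcl2l11 and from 0.34 to 0.70 for Bik. The cause of these shifts was not tested. For Aes it ran from -2.29 to -2.02, and its adjusted p was 0.0372 without knockout replicate 2 and at least 0.141 in the other alternatives.

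With the replicate block the counts stayed at 0. The differences of the members (Bcl2 -1.10) could not change, because every replicate number is present in both groups. The numbers were not treated as pairs, because the labels do not say that they pair samples. Deviations of same-numbered samples from their group means correlated at -0.25, -0.25 and 0.10. With 3 samples per group these values cannot settle whether samples are paired. The number of arrays and the lack of detection calls limit the precision: 95% intervals of the members reached from 0.18 (Bad) to 2.11 (Bcl2) on either side of the difference.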
